A study of Mus musculus with 13 samples.

Results

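Pluripotency genes were examined in CD31+ cells sorted from sprouting embryoid bodies (EBs), aggregates of differentiating mouse embryonic stem cells (mESCs) from which vessels grow out. The 10 genes Pou5f1, Sox2, Nanog, Esrrb, Zfp42, Dppa3, Dppa4, Dppa5a, Tdgf1 and Utf1 were taken by symbol, and each was listed among the 24421 genes of the sprout tables and the 24984 genes of the tumor tables. They are widely used as marks of undifferentiated mESCs or of the early epiblast. No measured value enters the rule, although the set was proposed with earlier results of these data known.

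The sprout libraries came from female C57BL/6x129 mESCs in which a gene trap lies in the Apln gene, between exons 1 and 2. Libraries labelled STOP (n = 2) carry the trap in sense orientation, which is meant to stop the transcript, and were given DMSO. Libraries labelled GO (n = 2) come from sister cells that received a retroviral Cre with mCherry, which turned the trap to antisense, and were given Apelin Pyr13 at 1000 nM. Which group had the peptide is taken from the legends of the paper, since the labels give both agents for both groups. EBs of both groups went into collagen I at day 8 with 30 ng/ml VEGFA164, and the sort used CD31 alone. The GO cells thus differ from the STOP cells by Cre infection, by the orientation of the trap and by added peptide together, and these cannot be told apart here. As a negative reference, CD31+/CD105+ endothelial cells (ECs) sorted from E0771 mammary tumors in C57BL6/J mice were used at 100 cells per library: 3 libraries of Apln-/- hosts with tumors of shApln cells, and 6 of wild-type hosts with tumors of shRenilla cells. Nothing in the labels says that libraries of a group come from separate cultures, so p-values measure only the spread between these libraries.

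Pluripotency in mESCs rests on a small circuit of transcription factors. OCT4 (encoded by Pou5f1) and SOX2 bind DNA side by side at a composite of an octamer and a Sox element, NANOG and ESRRB reinforce them, and many of their targets are genes of the same group. When leukaemia inhibitory factor is withdrawn and EBs form, this program is shut down while germ layers and later ECs appear. CD31, the antigen used for the sort, is carried by ECs and also by undifferentiated mESCs.

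The DNA just before the start sites of 3 of these genes held the octamer core ATGCAAA within RefSeq promoter windows (GRCm38.p6, 250 bases before to 50 after the start site, 300 bases in all). Below are the 250 bases before the start site, 5′ to 3′ on the strand of the gene, with matches to the octamer core and to the Sox element CATTGT in capitals, on whichever strand they lie. They are shown because the circuit binds such letters. Nanog is at chr6:122707239-122707488 on the plus strand, Sox2 at chr3:34649745-34649994 on the plus strand and Zfp42 at chr8:43307010-43307259 on the minus strand.
Nanog: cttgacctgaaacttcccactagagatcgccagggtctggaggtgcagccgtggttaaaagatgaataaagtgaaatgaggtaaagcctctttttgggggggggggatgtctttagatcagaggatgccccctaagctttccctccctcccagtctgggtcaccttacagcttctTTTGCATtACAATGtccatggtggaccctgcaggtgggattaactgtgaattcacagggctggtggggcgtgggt
Sox2: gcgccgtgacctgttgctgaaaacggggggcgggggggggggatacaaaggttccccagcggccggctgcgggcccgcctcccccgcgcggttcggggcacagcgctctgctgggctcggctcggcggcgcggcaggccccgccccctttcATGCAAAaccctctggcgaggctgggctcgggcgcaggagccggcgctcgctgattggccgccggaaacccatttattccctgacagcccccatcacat
Zfp42: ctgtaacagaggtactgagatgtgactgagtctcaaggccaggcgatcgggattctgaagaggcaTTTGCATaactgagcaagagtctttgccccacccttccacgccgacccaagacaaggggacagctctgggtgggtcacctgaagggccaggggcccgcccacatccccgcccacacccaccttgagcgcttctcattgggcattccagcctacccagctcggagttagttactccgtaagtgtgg

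In the Nanog window the capitals form 1 block, in which both elements, separated by 1 base, lie on the strand opposite to the gene. Its first base is at -75 from the start site. The letters CATTGTNATGCAAA, searched on both strands, occurred in 2 of 32851 promoter windows (0.00609%), and both were windows of Nanog, which has a second annotated start site nearby. The octamer core alone occurred in 4.63% of all windows and in 4 of the 10 windows of the 7 genes matched. The Sox element alone occurred in 12.6% of all windows and in 4 of these 10, which were those of Nanog, 1 of Pou5f1 and 1 of Esrrb. The composite contains both of the others, so these matches overlap. The Esrrb element TCAAGGTCA was found in 0.423% of windows and in none of the 10. Windows of Pou5f1, Sox2, Nanog, Esrrb, Zfp42, Tdgf1 and Utf1 were matched, and Dppa3, Dppa4 and Dppa5a had no entry. A match of letters is a description and not a site.

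Total counts lay between 12327030 and 16804071 in the sprout libraries and between 4661044 and 14455093 in the tumor libraries. Apln, the targeted gene, had levels, as counts scaled to library size (CPM), of 66.0 and 80.1 in the libraries labelled STOP and of 58.1 and 65.9 in those labelled GO, so it was not lower under the STOP label (log2 fold change 0.24, adjusted p = 0.367 in the edgeR quasi-likelihood test). In tumor ECs it lay at 2.43 to 12.01 CPM in Apln-/- and at 414 to 1028 CPM in wild-type libraries. The sprout groups are therefore called by their labels throughout. Folds below are those of the libraries labelled STOP over those labelled GO, on the log2 scale, from edgeR fitted to 14557 genes.

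All 10 genes were strongly represented in the sorted sprout cells, and each lay higher in both STOP libraries than in either GO library. Across all genes tested, 31.1% had that order. Of the 10, Dppa5a alone passed an adjusted p of 0.05 with an absolute log2 fold change above 1 (background 0.852% called increased), and none was decreased (background 3.03%). The median log2 fold change of the 10 was 0.90, beside 0.01 over all genes tested. Before adjustment, edgeR put every one of the 10 but Dppa3 under a p of 0.05, as it did 26.7% of all genes in either direction and 12.4% in this one. In the DESeq2 Wald test, 8 of the 10 had an adjusted p under 0.05, Dppa4 (0.0634) and Utf1 (0.0809) being the exceptions, beside 4.89% of all genes increased at that p. Of these 8, Dppa5a and Nanog also passed the fold threshold. In bulk RNA, more cells of a type and more RNA per cell cannot be told apart, so these values do not say how many of the sorted cells carried the transcripts.

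**Figure D1:**
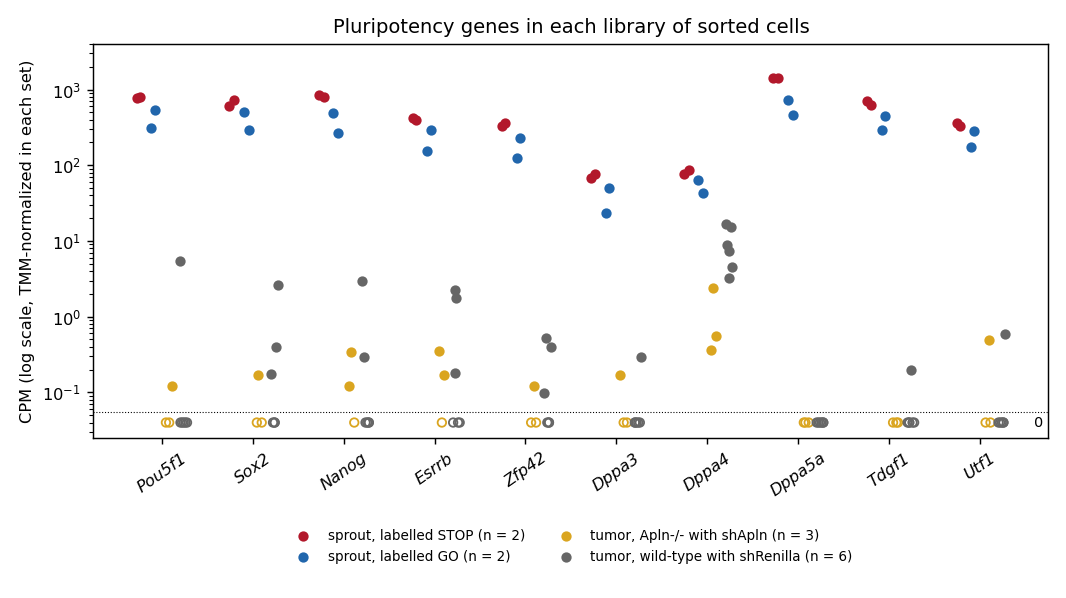
CPM of each pluripotency gene in each library, on a log axis, with 1 point per library; open symbols at the bottom are libraries with 0 counts. Sprout libraries sit from 23.2 to 1443 CPM with the STOP points above the GO points for every gene, and tumor libraries sit at or near 0 apart from Dppa4.

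Of the 3 core transcription factors, Pou5f1 encodes OCT4, the POU-domain factor without which the inner cell mass is not maintained. Pou5f1 (ENSMUSG00000024406.16, chr17:35506018-35510772, plus strand, mm10) had 782 and 799 CPM in the STOP libraries and 310 and 529 CPM in the GO libraries. Both STOP libraries stood above both GO libraries, and the GO libraries stood farther from each other than the STOP libraries did. The log2 fold change was 0.92 (SE 0.25), with an adjusted p of 0.0867 in edgeR, which missed the threshold.

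Sox2, the HMG-box partner of OCT4 that neural progenitors also use, had 724 and 601 CPM in STOP and 296 and 503 CPM in GO. STOP replicate 2 and GO replicate 2 were closer here than for Pou5f1, and the groups still did not overlap. Its log2 fold change was 0.73 (SE 0.26, edgeR adjusted p = 0.151). Nanog, the homeodomain factor whose level falls early as mESCs leave the naive state, had 797 and 839 CPM in STOP and 266 and 494 CPM in GO. Its STOP libraries were high and alike, and GO replicate 1 was the lowest. Its log2 fold change of 1.11 (SE 0.30) exceeded 1, but the adjusted p of 0.0905 in edgeR did not pass. Nanog passed both thresholds in the DESeq2 Wald test, with an adjusted p of 0.000702.

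Esrrb, an orphan nuclear receptor, and Zfp42, the zinc-finger protein REX1, mark the naive state and are lost soon after exit from it. Esrrb had 415 and 400 CPM in STOP and 156 and 289 CPM in GO, with a log2 fold change of 0.87 (SE 0.29, edgeR adjusted p = 0.142). Zfp42 had 333 and 363 CPM in STOP and 124 and 231 CPM in GO, with a log2 fold change of 0.97 (SE 0.30, edgeR adjusted p = 0.126). For both genes STOP libraries were high, GO replicate 2 was between, and GO replicate 1 was low.

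Tdgf1 encodes CRIPTO, the membrane-anchored co-receptor through which Nodal signals. It had 705 and 633 CPM in STOP and 288 and 441 CPM in GO. The groups were apart, and the log2 fold change of 0.88 (SE 0.21) had an adjusted p of 0.0575 in edgeR, the lowest of the 9 genes that did not pass. Utf1, a chromatin-bound factor of undifferentiated cells, had 357 and 335 CPM in STOP and 174 and 285 CPM in GO. GO replicate 2 came closest to the STOP libraries, and the log2 fold change of 0.59 (SE 0.24, edgeR adjusted p = 0.172) was the smallest of the 10.

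The developmental pluripotency-associated genes are named for their shared expression and not for sequence. Dppa3 encodes STELLA, which protects DNA methylation in the early embryo and is also made in germ cells. It was the least abundant in CPM, with 68.5 and 76.6 CPM in STOP and 23.2 and 49.5 CPM in GO. The log2 fold change of 1.00 came with the largest SE of the set, 0.38 (edgeR adjusted p = 0.190). Dppa4, a SAP-domain protein bound to chromatin, had 85.4 and 77.0 CPM in STOP and 42.6 and 63.2 CPM in GO, with a log2 fold change of 0.62 (SE 0.20, edgeR adjusted p = 0.108). Both stood higher in STOP, with GO replicate 1 again the lowest library.

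Dppa5a (ENSMUSG00000060461.5, chr9:78367052-78368177, minus strand, mm10) encodes a KH-domain RNA-binding protein of the inner cell mass and mESCs. It had 1437 and 1443 CPM in STOP and 461 and 722 CPM in GO. The STOP libraries were nearly equal and each lay above the sum of both GO libraries. The level was thus 2.43-fold higher in STOP, with a log2 fold change of 1.28 (SE 0.22, edgeR adjusted p = 0.0227), and by p it ranked 44 among the 124 genes called increased. The call rested on single libraries. Without STOP replicate 1 its log2 fold change was 1.31 with an adjusted p of 0.0959 in edgeR, and without GO replicate 1 it was 0.99, just under the fold threshold, with an adjusted p of 0.0296.

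**Figure D2:**
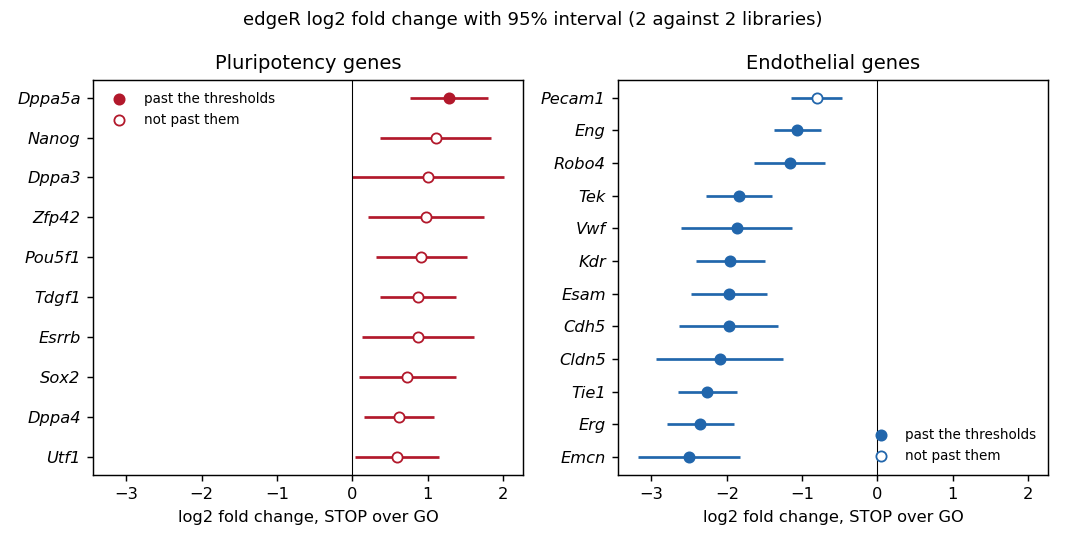
Log2 fold change of STOP over GO with its 95% interval from edgeR for the 10 pluripotency genes (left) and 12 endothelial genes (right), 2 against 2 libraries; filled points passed the thresholds. Every pluripotency gene lies above 0, from 0.59 for Utf1 to 1.28 for Dppa5a, and every endothelial gene lies below 0.

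The members shared a pattern among the libraries that the comparison of the groups does not show. GO replicate 2 was higher than GO replicate 1 for all 10, by 1.49-fold for Dppa4 to 2.13-fold for Dppa3, with a median of 1.70-fold. Over all tested genes the median of this ratio was 1.03, and 8.25% of genes exceeded the ratio of Dppa4. The STOP libraries were close to each other, with a median ratio of replicate 2 to replicate 1 of 0.98. The 12 endothelial genes had a median ratio of 0.92 between the GO libraries, with 4 of the 12 above 1. Between the same libraries, GO replicate 1 and 2, the summed level was 1920 and 2765 CPM for 20 further pluripotency genes, and 2501 and 549 CPM for 8 mural and fibroblast genes, which lay at 416 and 2204 CPM in the STOP libraries. What part the other cells have in this difference was not tested.

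The count of calls changed with the library left out, among the 10 and among all genes. Without GO replicate 2, 8 of the 10 passed the thresholds, Dppa4 and Utf1 being the exceptions, the median log2 fold change was 1.37, and 341 of 15148 genes tested were called increased. Without GO replicate 1 none of the 10 passed and 19 genes of all were called increased, and without STOP replicate 1 none of the 10 and 12 of all. Without STOP replicate 2, Dppa5a alone of the 10 passed, with 120 of all. Without GO replicate 1 the median log2 fold change was 0.56. The direction did not turn for any of the 10 in the 13 alternatives run. Since both STOP libraries lay above both GO libraries for each, leaving 1 library out could hardly turn it. A lone library left in a group was assumed to vary like the other group.

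**Figure D3:**
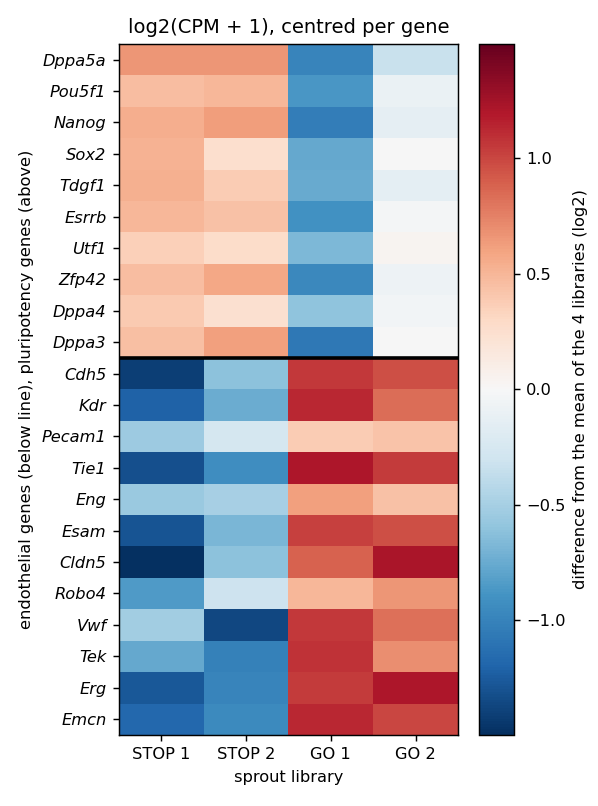
Difference of log2(CPM + 1) from the mean of the 4 sprout libraries for each pluripotency gene (above the line) and each endothelial gene (below it). GO replicate 1 is the lowest column for all 10 pluripotency genes, GO replicate 2 lies between it and the STOP libraries, and all 12 endothelial genes are lower in both STOP libraries than in both GO libraries.

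Levels between genes were compared per length, in TPM, which RSEM scales by transcript length and depth. Dppa5a had 9472 and 9226 TPM in STOP, where it ranked second of 24411 genes behind the elongation factor gene Eef1a1, and 3528 and 5314 TPM in GO, where it ranked 26 and 9. Pou5f1 followed with 1355 and 1394 TPM in STOP and 676 and 1086 TPM in GO. Together the 10 genes took 1.41% and 1.38% of all TPM in STOP and 0.575% and 0.880% in GO, and Dppa5a made up most of each of these sums. Most copies of Dppa5a had no entry of their own, so its TPM may include reads from them. How much they add was not tested. Of the HTSeq counts, which leave out reads with several placements and are not scaled by length, the 10 took 0.563% and 0.555% in STOP and 0.216% and 0.363% in GO.

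In STOP, the order below Pou5f1 by mean TPM was Nanog (771 ± 17.7, SD, n = 2), Tdgf1 (686 ± 64.2), Zfp42 (486 ± 15.9), Utf1 (421 ± 26.3), Sox2 (370 ± 56.4), Dppa3 (195 ± 11.6), Dppa4 (171 ± 18.3) and Esrrb (135 ± 5.66). Only Utf1 and Sox2 were neighbours whose libraries overlapped. In GO the order began with Dppa5a (4421 ± 1262) and Pou5f1 (881 ± 290), and from Tdgf1 (413 ± 87.6) through Nanog, Utf1 and Zfp42 to Sox2 (246 ± 70.9) each gene overlapped the next. Dppa4, Dppa3 and Esrrb (81.7 ± 28.6) overlapped likewise at the low end. The wide GO spread is the difference between its libraries already described.

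Several of these genes left processed copies in the genome, and a 50-base read from such a stretch cannot be placed by alignment alone. HTSeq counted reads with 1 placement, whereas RSEM shared the others out among the genes it listed. Most pseudogenes that share windows with the 10 were not listed there, so reads from them could go to the gene copied. For Sox2, Esrrb and Utf1, none of the 50-base windows of the transcript recurred in another gene of GENCODE vM21, and RSEM gave 0.98 to 1.01 times the HTSeq count. Nanog shared windows with 55 genes, of which 39 were protein-coding and 2 were pseudogenes. For Pou5f1 the ratio was 1.5 to 1.63 and for Nanog 1.40 to 1.43, with 0.99% and 4.61% of windows shared. It was 1.39 to 1.41 for Tdgf1 (12.5% shared, with Tdgf1-ps1), 1.51 to 1.53 for Dppa3 (17.7%, foremost Dppa3-ps) and 1.78 to 1.91 for Zfp42 (9.52%, Zfp42-ps1). The ratio rose to 2.05 to 2.29 for Dppa4 (35.1% of windows) and 2.78 to 2.98 for Dppa5a (38.6%).

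Across 10874 genes with at least 400 counts in all, the median ratio was 1.00, and 11.4% of genes exceeded 1.2, as 7 of the 10 did. The shared windows are exact matches in annotated genes only and are thus a lower bound of what an aligner cannot place. HTSeq tallied 42.6% to 49.6% of the entries of the sprout libraries as having several placements. Whether that tally holds each read only once was not tested.

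The copies of Dppa5a are shown by a window from its coding sequence in exon 2, at chr9:78367824-78367873 on the minus strand of mm10. This stretch recurs letter for letter in 6 other annotated genes, among them the pseudogenes Gm6083, Gm6798, Gm15310, Dppa5b and Dppa5c, so a read spanning it has no single place.
Dppa5a window: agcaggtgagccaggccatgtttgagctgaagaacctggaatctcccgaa

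Of 17 pseudogenes that share windows with the 10 genes, 2 had an entry of their own in the sprout tables. Gm6083, a copy of Dppa5a, had HTSeq counts of 36 and 27 in STOP and 13 and 24 in GO, against 17725 to 21239 for Dppa5a in STOP. Gm5712, a copy of Pou5f1, had 4 and 3 in STOP and 0 and 3 in GO. On RSEM expected counts Dppa5a was again the only one of the 10 to pass, and the median log2 fold change was 0.86.

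**Figure D4:**
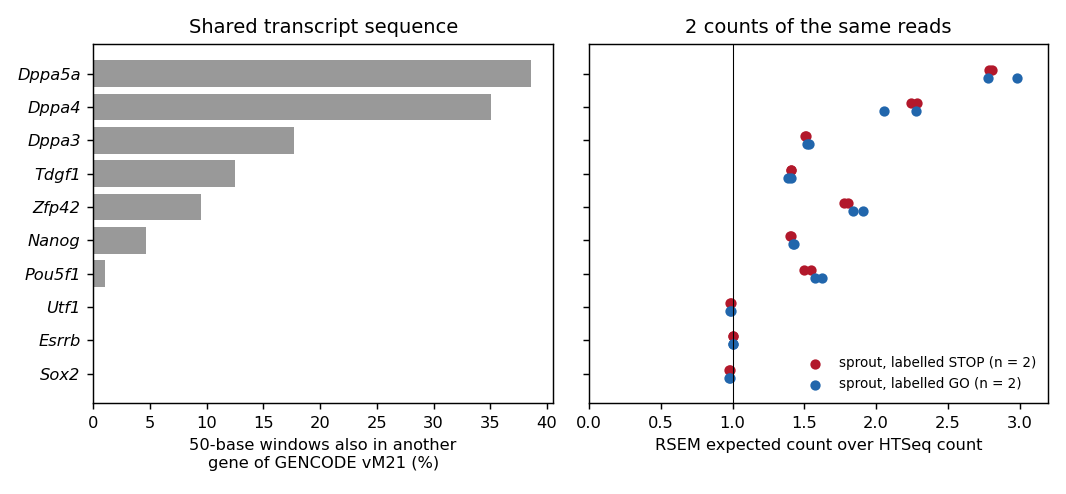
Left, percent of 50-base transcript windows of each gene that recur in another annotated gene. Right, RSEM expected count over HTSeq count in each sprout library (1 point per library). The ratio is near 1 for Utf1, Esrrb and Sox2, which share no window, and highest at 2.78 to 2.98 for Dppa5a.

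Tumor ECs gave a near-empty background for 9 of the 10 genes. The summed level of all 10 was 0.91 to 3.21 CPM in Apln-/- libraries and 7.57 to 21.5 CPM in wild-type libraries, beside 2140 to 3607 CPM in GO and 5568 to 5702 CPM in STOP. Dppa5a had 0 counts in all 9 tumor libraries, where 3 counts, the limit that a count of 0 allows, correspond to 0.211 to 0.593 CPM, so its lowest sprout library was at least 778-fold higher. The sets differ in library kit, counting and scaling and were normalized separately, so levels across them are a description, and limits of this kind cover counting error only.

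Pou5f1 was at 0 in 5 of 6 wild-type and 2 of 3 Apln-/- libraries, and its highest tumor library, with 30 counts, had 5.46 CPM, which the lowest sprout library exceeded 56.7-fold. The like ratio was 113 for Sox2, 89.7 for Nanog and 69.2 for Esrrb. Zfp42, Dppa3, Tdgf1 and Utf1 had at most 4 counts in any tumor library. The highest tumor library was another one for each of Pou5f1, Sox2, Nanog and Esrrb. Wild-type replicate 4 held reads of 6 of these 9 genes, at 1 to 15 counts each, and 0 of Pou5f1, Dppa3 and Dppa5a.

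Dppa4 was the exception and the only one of the 10 with enough counts for the tumor test. Its counts were 14, 8 and 3 in Apln-/- libraries, or 2.37, 0.562 and 0.365 CPM. In the 6 wild-type libraries it ranged from 3.28 CPM through a median of 8.07 to 17.0 CPM, with 18 to 98 counts. All Apln-/- libraries lay below all wild-type libraries, as 1.28% of 13073 tested genes did. The log2 fold change of Apln-/- over wild-type was -3.10 (SE 1.12), with an adjusted p of 0.957 in edgeR, under which 0.00765% of genes, Apln alone, passed. The DESeq2 Wald test gave -3.14 with an adjusted p of 0.0166, and over the alternatives the adjusted p ranged from 0.0166 to 1.00. Without Apln-/- replicate 1 the log2 fold change was -4.28, without Apln-/- replicate 2 it was -2.78 and without Apln-/- replicate 3 it was -2.69, with an adjusted p of 0.693 to 0.999 in edgeR. Dppa4 shares 35.1% of its windows with pseudogenes, and whether they contribute to its tumor counts was not tested.

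The endothelial list, whose Pecam1 and Eng encode CD31 and CD105, ran opposite to the pluripotency genes in the sprouts. Its 12 genes summed to 609 to 816 CPM in STOP, 2231 to 2405 CPM in GO and 6761 to 12023 CPM in tumor ECs. All 12 lay lower in both STOP libraries than in both GO libraries, an order that 29.6% of all genes tested had, and 11 were called decreased (3.03% of all genes), with a median log2 fold change of -1.96; without GO replicate 1, 6 were called. Emcn, an endothelial sialomucin (-2.50), Erg, an endothelial ETS factor (-2.35), Tie1 (-2.26) and Cldn5, a tight-junction protein (-2.10), moved most. Tek, Kdr, Esam, Cdh5, Vwf, Robo4 and Eng made up the other called genes, from -1.06 for Eng to -1.98 for Cdh5. Pecam1, at 138 and 169 CPM in STOP and 264 and 273 CPM in GO, changed by -0.80 (edgeR adjusted p = 0.0244), short of the fold threshold. In tumor ECs Pecam1 had 1005 to 1785 CPM. The part of cell makeup in the values of the pluripotency genes was not tested.

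A further 20 genes of the pluripotent state leaned the same way as the 10. In 16 of them both STOP libraries lay above both GO libraries, an order that 31.1% of all genes tested had. Their median log2 fold change over the 20 was 0.70. Beside 0.852% of all genes called increased, 3 of the 20 passed the thresholds. Among them were Fgf4, the growth factor by which mESCs prime their own exit (1.02, edgeR adjusted p = 0.0475), and Tcl1, an AKT co-activator (1.34, edgeR adjusted p = 0.0465). Without STOP replicate 1 or GO replicate 1 none of the 20 passed, without STOP replicate 2 there was 1, and without GO replicate 2 there were 12, while DESeq2 called 6. Of 13492 genes with an adjusted p, DESeq2 called 198 increased. Among the most abundant of the 20, L1td1, an RNA-binding protein, had 0.87, with an edgeR adjusted p of 0.0432, short of the fold threshold. Tfcp2l1, a naive-state factor, had 0.74 and Klf2 0.56. Zfp57, a guardian of imprints, had 0.01, and Klf4 (-0.42) had the one negative value. The summed level of the 20 was 3538 to 3988 CPM in STOP, 1920 to 2765 CPM in GO and 303 to 1645 CPM in tumor ECs, where Klf2 and Klf4 are also expressed (179 to 1100 CPM and 53.6 to 475 CPM).

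Primed epiblast genes, switched on as naive cells move toward differentiation, were present as well. With no fold threshold edgeR called 1, Nodal, increased (adjusted p = 0.0422), as it did 279 of 14557 genes. None of the 9 passed both thresholds in edgeR or DESeq2. Before adjustment, edgeR put 6 of them under a p of 0.05, as it did 26.7% of all genes. For 7 of the 9, both STOP libraries lay above both GO libraries, an order that 31.1% of all genes tested had. Cer1 had the reverse order (log2 fold change -0.99), which 29.6% of all genes tested had. The median log2 fold change of the 9 was 0.60. Lefty2 (478 and 463 CPM in STOP, 241 and 380 CPM in GO), Lefty1 and Nodal, members of the pathway that uses CRIPTO, had log2 fold changes of 0.60, 0.71 and 0.78. Otx2 had 0.71 and Dnmt3b, a de novo DNA methyltransferase, 0.21. Fgf5, the usual mark of the primed state, was low at 57.3 and 40.0 CPM in STOP and 34.1 and 22.6 CPM in GO.

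The 8 germ cell genes, which share Dppa3 and other pluripotency genes with germ cell biology, had a median log2 fold change of 0.43 with none past the thresholds in edgeR or DESeq2, although 4 had an unadjusted p under 0.05 in edgeR (26.7% of all genes) and 2 were called increased without GO replicate 2. With no fold threshold edgeR called Kit and Prdm1 decreased, with adjusted p of 0.0337 and 0.0267, as it did 626 of 14557 genes. Tfap2c had 0.94, Ifitm3 0.55, Kit -0.70 and Prdm1 -0.76. Of 8 primitive streak genes, 7 were tested, and none passed in edgeR or DESeq2 or had an unadjusted p under 0.05 in edgeR. Eomes, a T-box factor of mesendoderm, was alike in both groups at 34.1, 36.1, 32.5 and 37.3 CPM, and T, Fgf8, Wnt3 and the rest stayed under 12 CPM.

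Genes of later lineages did not share the direction of the 10 as a whole. Over all genes tested, edgeR called 3.03% decreased and 0.852% increased. Of 13492 genes with an adjusted p, DESeq2 called 628 decreased and 198 increased. Without the filter on low counts, edgeR called 632 of 19441 genes decreased. Of 10 neural genes 9 were tested, with a median of -0.19, and Tubb3, a neuronal tubulin, passed (1.21, edgeR adjusted p = 0.0156), a call lost without STOP replicate 1 or GO replicate 1. Without GO replicate 2 there were 2 increased neural genes, and without STOP replicate 2 or with DESeq2 there was also 1 decreased. Nes had -1.42 and Sox3, a relative of Sox2, 0.83. Of 9 endoderm genes 8 were tested, with a median of -1.17, and Gata4 (-2.07) and Afp (-3.17) were decreased. Afp was scarce, with 0.135 and 0.407 CPM in STOP and 1.53 and 3.39 CPM in GO. In STOP replicate 1 it lay under the level of 3 counts, 0.203 CPM, so the size of its fold is uncertain. Of 9 trophoblast genes 7 were tested, with a median of -0.53 and 1 called, Cdx2 (-2.15), and Tpbpa was at 0 in every sprout library. DESeq2 called 2 trophoblast genes decreased. Leaving out any of the 4 sprout libraries ended the call of Cdx2, and leaving out STOP replicate 1, STOP replicate 2 or GO replicate 1 left 1 endoderm gene called. Of 8 blood genes 6 were tested, with a median of -2.13 and none called by edgeR, among them the embryonic globins Hbb-bh1 (-2.56) and Hba-x (-2.67). In edgeR 3 of the 6 had an unadjusted p under 0.05 (26.7% of all genes), and 2 were called decreased with DESeq2, without the filter on low counts, without STOP replicate 1 or without STOP replicate 2. The 8 mural and fibroblast genes had a median of -0.74 with none called in edgeR or DESeq2 and none with an unadjusted p under 0.05 in edgeR, and Col1a1 had 270 and 1366 CPM in STOP and 1586 and 306 CPM in GO, a spread within each group that exceeded the difference between groups.

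**Figure D5:**
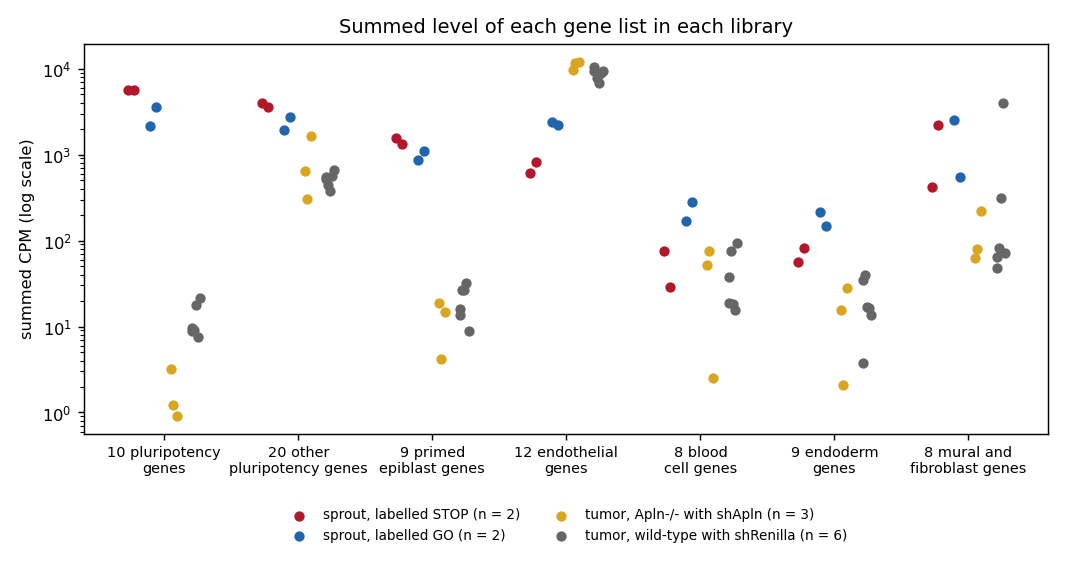
Summed CPM of each gene list in each library, on a log axis, with 1 point per library. The 10 pluripotency genes and the 20 others are highest in STOP and lower in GO, the endothelial genes run from STOP through GO to tumor ECs, and the 10 pluripotency genes fall to 21.5 CPM or less in every tumor library.

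By the summed squared difference of centred log2(CPM + 1) over the 4 sprout libraries, the genes most like Pou5f1 outside the lists were Ankrd45, Map7d2, Ctnnal1, Rpl39l and Tuba3a, of 10188 genes compared. Map7d2, for one, had 112 and 113 CPM in STOP and 44.2 and 76.0 CPM in GO, and Ctnnal1 173 and 186 CPM in STOP and 71.0 and 122 CPM in GO. None of the 5 passed the thresholds, with log2 fold changes of 0.89 to 1.01. Of the other 9 pluripotency genes, Esrrb stood at rank 11, Zfp42 at 19, Tdgf1 at 38, Nanog at 68 and Dppa3 at 82, and Sox2, Utf1, Dppa5a and Dppa4 followed at 121, 207, 232 and 269. With 4 libraries, this likeness is a description.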

How the data were processed

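RNA-Seq of 4 sprout and 9 tumor EC libraries was used. For the sprout libraries the authors aligned 50-bp reads to mm10 with STAR 2.5.0a and deposited raw whole-number counts per gene from HTSeq 0.6.1p1, which keeps reads with 1 placement. For the same libraries the authors deposited expected counts and TPM from RSEM 1.2.25. For the tumor libraries the authors deposited raw counts from featureCounts (Subread 1.6.2), and the aligner named differs between the labels (Bowtie2 2.3.4.1) and the methods (STAR). Lines that tally unassigned reads were left out.

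Counts were TMM-normalized and tested per set by the robust quasi-likelihood test of edgeR 4.0.16 (R 4.3.3) after filterByExpr at 10 counts, with p adjusted by Benjamini-Hochberg over all genes tested. Genes were called at an adjusted p under 0.05 with a log2 fold change beyond 1 in either direction. CPM use TMM library sizes. Alternatives were the DESeq2 1.42.0 Wald test, DESeq2 size factors, other filters, no fold threshold, RSEM counts rounded to whole numbers, a replicate block, each library left out, and, chosen after seeing the data, crossed replicate numbers and raw library sizes. Likeness to Pou5f1 used a pseudocount of 1 and genes with a mean of at least 10 CPM.

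The genes and all lists were chosen with earlier results of these data known. Genes named are the 10, every list gene past the thresholds, up to 4 more per list by mean CPM, the 5 most like Pou5f1, and Apln, Pecam1 and Eng; others were named after their values were seen. The values of 1 such list gene are not reported here. RefSeq promoter windows and GENCODE vM21 share the build of mm10.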

Additional observations from a re-analysis of the deposited data

Results flagged for a closer look

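In the 6 wild-type tumor libraries, 6 of the 9 pluripotency genes with any counts there had 1 library far above the others. This comes from a rule that by chance marks about 1 in 20 groups, and at these low counts, where most libraries are at 0, any single read can meet it. Pou5f1 had 5.46 CPM (30 counts) in wild-type replicate 1 and 0 in the other 5. Sox2 had 2.62 CPM (27 counts) in wild-type replicate 2, with 0.395 CPM in the next. Nanog had 2.96 CPM (15 counts) in wild-type replicate 4, with 0.291 CPM in the next. Dppa3 had 0.294 CPM (3 counts) in wild-type replicate 3. Tdgf1 had 0.198 CPM (1 count) and Utf1 0.593 CPM (3 counts) in wild-type replicate 4. The high library was replicate 4 for 3 of the 6 genes and another one for each of the rest. The source of these reads was not tested.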

How the results depend on the processing

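No pluripotency gene changed direction in the sprouts under the 13 alternatives, in which their log2 fold changes ran from 0.28 (Utf1 without GO replicate 1) to 1.65 (Dppa5a without GO replicate 2). With both STOP libraries above both GO libraries for each gene, these alternatives had little room to turn a direction. Dropping the fold threshold left the fit itself unchanged. Of the 10, edgeR called 1 increased; DESeq2 called 2 (8 had an adjusted p under 0.05), the replicate block 0, and leaving out 1 library 0 to 8. Of all genes, 441 were called decreased and 124 increased. The replicate block gave 41 and 3, with 6 of the 12 endothelial genes decreased in place of 11, and leaving out 1 library gave 135 to 548 and 12 to 341. Increased genes numbered 198 with DESeq2, 222 with no filter and 279 with no fold threshold. Under the block Dppa5a had a log2 fold change of 1.32 with an adjusted p of 0.0864 in edgeR. Deviations of same-numbered sprout libraries correlated at -0.43. With 2 libraries a group, the 2 pairs mirror each other and give this 1 value. Those of tumor libraries correlated at -0.05 on average (3 pairs, -0.14 to 0.06). The numbers were not taken as pairs, which the 1 sprout value alone cannot decide. Crossed numbers, chosen after seeing the data, gave 933 decreased and 302 increased genes and 2 of the 10. In tumor ECs, 1 of the 10 had enough counts to be tested, 8 with DESeq2, 9 with no filter and 1 to 2 with 1 library left out; none passed the thresholds in edgeR, where 1, Dppa4, had an unadjusted p under 0.05, and 1 passed with DESeq2. The causes of these shifts were not tested. With 2 libraries a group, the 95% interval of the log2 fold change ran from 0.76 to 1.80 for Dppa5a and from -0.01 to 2.01 for Dppa3, with at least 394 counts of each of the 10 in every sprout library.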
